A study of Drosophila melanogaster with 12 samples.

Results

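The RFP-GFP- (NEG) cells of the Drosophila wing imaginal disc, the cells outside the 30A-GAL4 domain of the hinge, were compared 24 h after 4000 R of X-rays with their unirradiated counterparts. Members of the comparison were chosen by the sample labels alone and are 4 of the 12 libraries of the series: NEG IR+24h replicates 1 and 2, and NEG -IR replicates 1 and 2. The series profiled poly-A RNA of 2 cell populations sorted by flow cytometry from trypsin-dissociated discs, RFP+GFP+ (POS) and NEG, without IR and at 24 and 48 h after IR, with 2 libraries in each of 6 groups. All larvae came from crosses of w1118 with 30A-GAL4 driving UAS-G-trace, and were picked by eye for RFP and GFP. G-trace is a lineage reporter in which RFP marks cells where the driver is active and GFP marks cells where it was active at any earlier time. NEG IR+24h larvae received 4000 R and their discs were taken 24 h later. NEG -IR larvae were mock-irradiated and their discs were taken after the same time, so these groups share the genotype and the time since real or mock irradiation and differ in dose. Discs were pooled over many crosses and sorts for each library, and the duplicates are repeats of the whole experiment. The NEG gate holds everything that never expressed 30A-GAL4: pouch and notum epithelium, the parts of the hinge outside the driver's domain, muscle precursors and any blood or tracheal cells attached to the disc. In such bulk samples, fewer cells of a type and less RNA per cell cannot be told apart.

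The libraries held 12952142 and 14697067 counts in NEG IR+24h, against 4211088 and 15010788 in NEG -IR. NEG -IR replicate 1 is the shallowest of the 12, whose median was 14939250, and 3 counts in it are worth 0.726 CPM, against 0.218 CPM in replicate 2. CPM are counts scaled to a common library size with edgeR's TMM factors. They are not divided by gene length, so levels were compared between libraries and not between genes. The sort could be checked with 9 textbook hinge genes, whose summed level was 1308 and 1397 CPM in NEG IR+24h and 1745 and 2177 CPM in NEG -IR, all below the 3774 and 3219 CPM of POS IR+24h and the 4597 and 7125 CPM of POS -IR. The 13 hemocyte markers summed to 2520 and 1286 CPM in NEG IR+24h, against 1095 and 2310 CPM in NEG -IR, and the groups overlapped. Most of each sum came from the collagen IV genes Col4a1 and vkg, which are also basement membrane genes, so the sums do not measure blood cell content. Col4a1 had 1364 and 674 CPM in NEG IR+24h and 573 and 1312 CPM in NEG -IR. The hemocyte gene Hml had 167 and 49.8 CPM in NEG IR+24h and 30.7 and 63.5 CPM in NEG -IR, and was detected in all 4 libraries. The 12 pouch genes summed to 1890 and 2014 CPM in NEG IR+24h and 2321 and 2309 CPM in NEG -IR, and the 11 notum genes to 256 and 265 CPM in NEG IR+24h and 361 and 284 CPM in NEG -IR. In POS cells the pouch genes summed to 1761 and 1517 CPM at IR+24h and 1824 and 2484 CPM at -IR. The notum genes summed there to 177.9 and 159.6 CPM at IR+24h and 243 and 371.5 CPM at -IR. At -IR the NEG and POS sums overlapped for both lists, so neither list separated the populations in that condition.

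X-rays break DNA, and in Drosophila larval discs the breaks activate the ATM and Chk2 kinases and through them p53, the transcription factor that switches on the proapoptotic genes reaper, hid, grim and sickle along with repair genes. Stressed and dying disc cells also signal to their neighbours and to the rest of the animal through JNK, the JAK/STAT ligands of the Unpaired family and the relaxin-like peptide Ilp8, which delays metamorphosis. The ecdysone pulse at the end of larval life drives the disc towards eversion, and Notch and EGFR signals pattern the epithelium meanwhile.

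Of 10617 genes tested, 201 rose and 28 fell in NEG IR+24h relative to NEG -IR at an adjusted p under 0.05, which is 2.16% in all, 1.89% higher and 0.264% lower. All p-values of single genes come from edgeR's quasi-likelihood test and are two-sided. Unless called unadjusted, they are Benjamini-Hochberg adjusted over all 10617 genes. The increases were larger in number and in size. Their median log2 fold change was 1.65, and that of the decreases was -1.46, while the median of all genes was -0.01. Among the increases 172 were over 2-fold and 80 over 4-fold, and among the decreases 20 and 11 were. The 201 genes took 2.47% and 2.76% of all counts in NEG IR+24h, against 1.01% and 0.94% in NEG -IR. The 28 genes took 0.378% and 0.306% in NEG IR+24h, against 0.74% and 0.819% in NEG -IR. All 229 genes changed the same way in all 4 pairs of 1 irradiated and 1 unirradiated library. Among all genes tested 21.6% were higher and 17.7% lower in all 4 pairs, so that agreement alone separates few genes. At an unadjusted p under 0.05 there were 1383 genes.

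**Figure D1:**
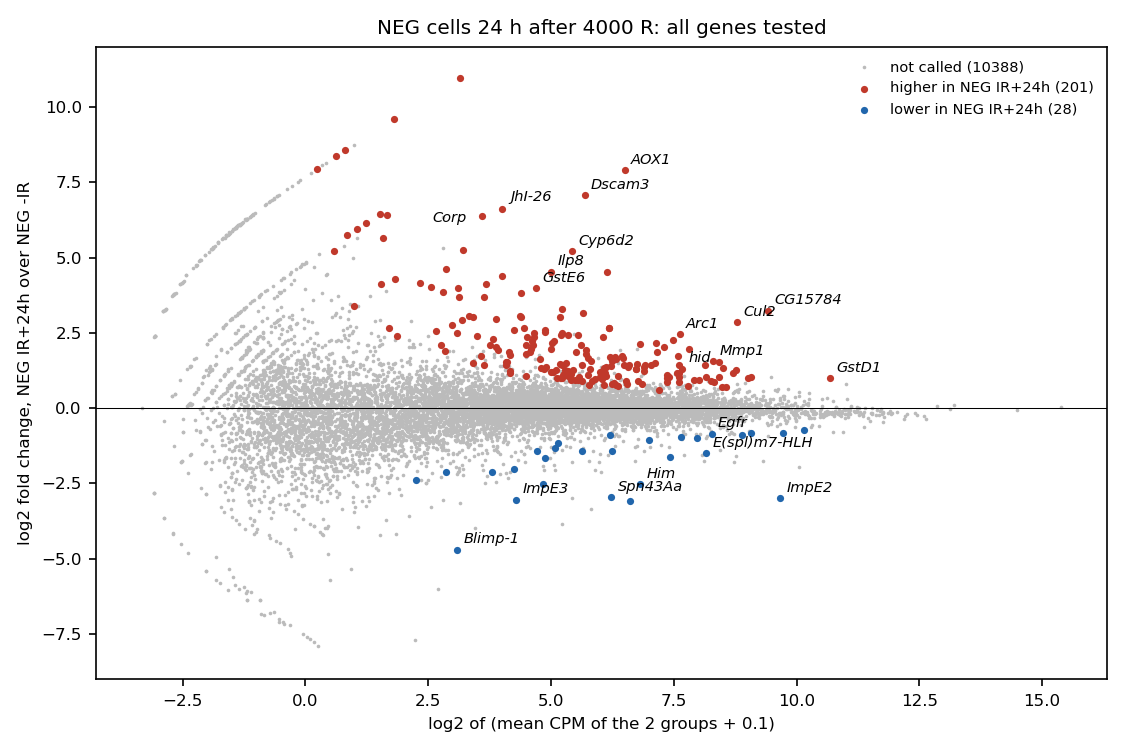
Log2 fold change of NEG IR+24h over NEG -IR (vertical axis) against log2 of the mean CPM of both groups plus 0.1 (horizontal axis) for each of the 10617 genes tested. Red points are the 201 genes that rose, blue points the 28 that fell and grey points those that did not pass. AOX1 stands at 7.92 and Blimp-1 at -4.70.

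The number of calls depended on single libraries. It was 110 without NEG IR+24h replicate 1 and 60 without NEG IR+24h replicate 2, where every call was higher. Without the shallow NEG -IR replicate 1 it was 231, of which 180 were higher and 51 lower, and 149 of the 229 genes were among them. Without NEG -IR replicate 2 it was 300, of which 196 were higher and 104 lower, with 144 of the 229 among them. None of the 229 turned its direction in any of these fits. In the accounts that follow, a gene is said to hold its call when it passed in all 4 fits that left out 1 library.

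Checkpoint and p53 genes were measured for 12 members of a textbook list, of which Corp, p53 and nbs rose and none passed as lower. The median log2 fold change of the list was 0.04, and 1.89% of all genes tested rose. Corp, which encodes a p53 target that in turn restrains p53, had 19.3 and 28.4 CPM in NEG IR+24h, against 0.242 and 0.291 CPM in NEG -IR. It was all but absent without IR (1 and 4 counts) and present in both irradiated libraries. Its log2 fold change was 6.38 with a standard error (SE) of 0.63 (adjusted p = 0.000425), and it held its call. The gene p53 itself had 23.9 and 26.8 CPM in NEG IR+24h and 6.78 and 10.4 CPM in NEG -IR, so the groups were apart by more than their spread (log2 fold change 1.53, SE 0.30, adjusted p = 0.0228). nbs, a subunit of the MRN complex that recognises broken ends, had 46.4 and 49.8 CPM in NEG IR+24h and 23 and 17.2 CPM in NEG -IR (log2 fold change 1.27, SE 0.25, adjusted p = 0.0228). The checkpoint kinases tefu (ATM), mei-41 (ATR), lok (Chk2) and grp (Chk1) did not pass. The number of the list that passed was 1 without either NEG IR+24h library and 2 without either NEG -IR library, with adjusted p of 0.205 for p53 and 0.19 for nbs without NEG IR+24h replicate 2.

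The p53 locus also gave an antisense transcript. asRNA:CR46089 (FBgn0267758, chromosome 3R, 23052916 to 23057984, plus strand in the BDGP6.54 annotation) had 14.2 and 21.1 CPM in NEG IR+24h and 0 in both NEG -IR libraries. That is 482 counts against 0, at least 107-fold higher when the floor of 3 counts is set over both NEG -IR libraries together, and the call held (adjusted p = 0.000104). It runs opposite to p53 (FBgn0039044, chromosome 3R, 23049657 to 23054082, minus strand) and overlaps 38% of the exon bases of p53. Of its own exon bases, 45.5% overlap p53 or Ctns on the other strand. Which strand the authors counted is not stated, so reads over the shared bases cannot be assigned and the increase of p53 itself remains uncertain. Gr94a, a gustatory receptor gene that ends just before the antisense RNA begins and lies on its strand, had 3.92 and 5.05 CPM in NEG IR+24h, against 0 and 0.0726 CPM in NEG -IR. The ratio was 81 with a 95% exact counting interval of 14.3 to 3230, which covers counting error only, because NEG -IR held 1 count in all. Gr94a falls outside the naming rule and was chosen after its values were seen.

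DNA repair genes numbered 46, of which 7 rose, against 1.89% of all genes tested. The median of the list was a log2 fold change of 0.25, against -0.01 for all genes, and 19 of the 46 were higher in all 4 pairs, against 21.6% of all genes. Both subunits of the Ku heterodimer, which holds broken ends for end joining, were among them. Irbp (Ku70) had 44.8 and 55.1 CPM in NEG IR+24h and 11.1 and 6.03 CPM in NEG -IR, a 6.07-fold increase (SE 0.43 on the log2 scale, adjusted p = 0.00884). Ku80 had 43.8 and 61.2 CPM in NEG IR+24h and 17.2 and 7.34 CPM in NEG -IR (log2 fold change 2.17, SE 0.45, adjusted p = 0.0279). For both genes the irradiated libraries stood above both unirradiated ones, of which replicate 1 was the higher. The other MRN subunits rose with nbs. mre11 had 152 and 148 CPM in NEG IR+24h and 78.4 and 45.1 CPM in NEG -IR (log2 fold change 1.30, adjusted p = 0.0331), and rad50 had 141 and 158 CPM in NEG IR+24h and 75.5 and 47.7 CPM in NEG -IR (log2 fold change 1.29, adjusted p = 0.0221). mus205, the catalytic subunit of the translesion polymerase zeta, had 103 and 121 CPM in NEG IR+24h and 46.7 and 23.3 CPM in NEG -IR (log2 fold change 1.71, SE 0.32, adjusted p = 0.0151). Parp, which builds poly(ADP-ribose) at strand breaks, had 206 and 319 CPM in NEG IR+24h and 114 and 118 CPM in NEG -IR (log2 fold change 1.17, SE 0.20, adjusted p = 0.0111). The groups did not overlap for any of these genes, as for every called gene.

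agt, a DNA alkyltransferase, was the last of the 7. Part of its exons overlaps twr on the other strand, so its call is uncertain for the same reason as that of p53. The end-joining ligase DNAlig4 had 9.29 and 12.8 CPM in NEG IR+24h and 4.11 and 3.41 CPM in NEG -IR, and Ercc1 of nucleotide excision repair had 15.4 and 12.3 CPM in NEG IR+24h and 4.6 and 4.5 CPM in NEG -IR. Neither passed (adjusted p = 0.23 and 0.0571). In the DNA replication list 2 of 42 genes rose, RpA-70, the large subunit of the single-strand binding protein RPA (393 and 428 CPM in NEG IR+24h, 128 and 176 CPM in NEG -IR, log2 fold change 1.43, adjusted p = 0.00184), and RnrL, the large subunit of ribonucleotide reductase (345 and 335 CPM in NEG IR+24h, 165 and 192 CPM in NEG -IR, log2 fold change 0.93, adjusted p = 0.00652). RpA-70 held its call. Of all genes tested 1.89% rose. Without NEG IR+24h replicate 2 the 7 repair genes had adjusted p between 0.0733 for Irbp and 0.214 for Ku80, and the number that passed was 3 without NEG IR+24h replicate 1 or without NEG -IR replicate 2.

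**Figure D2:**
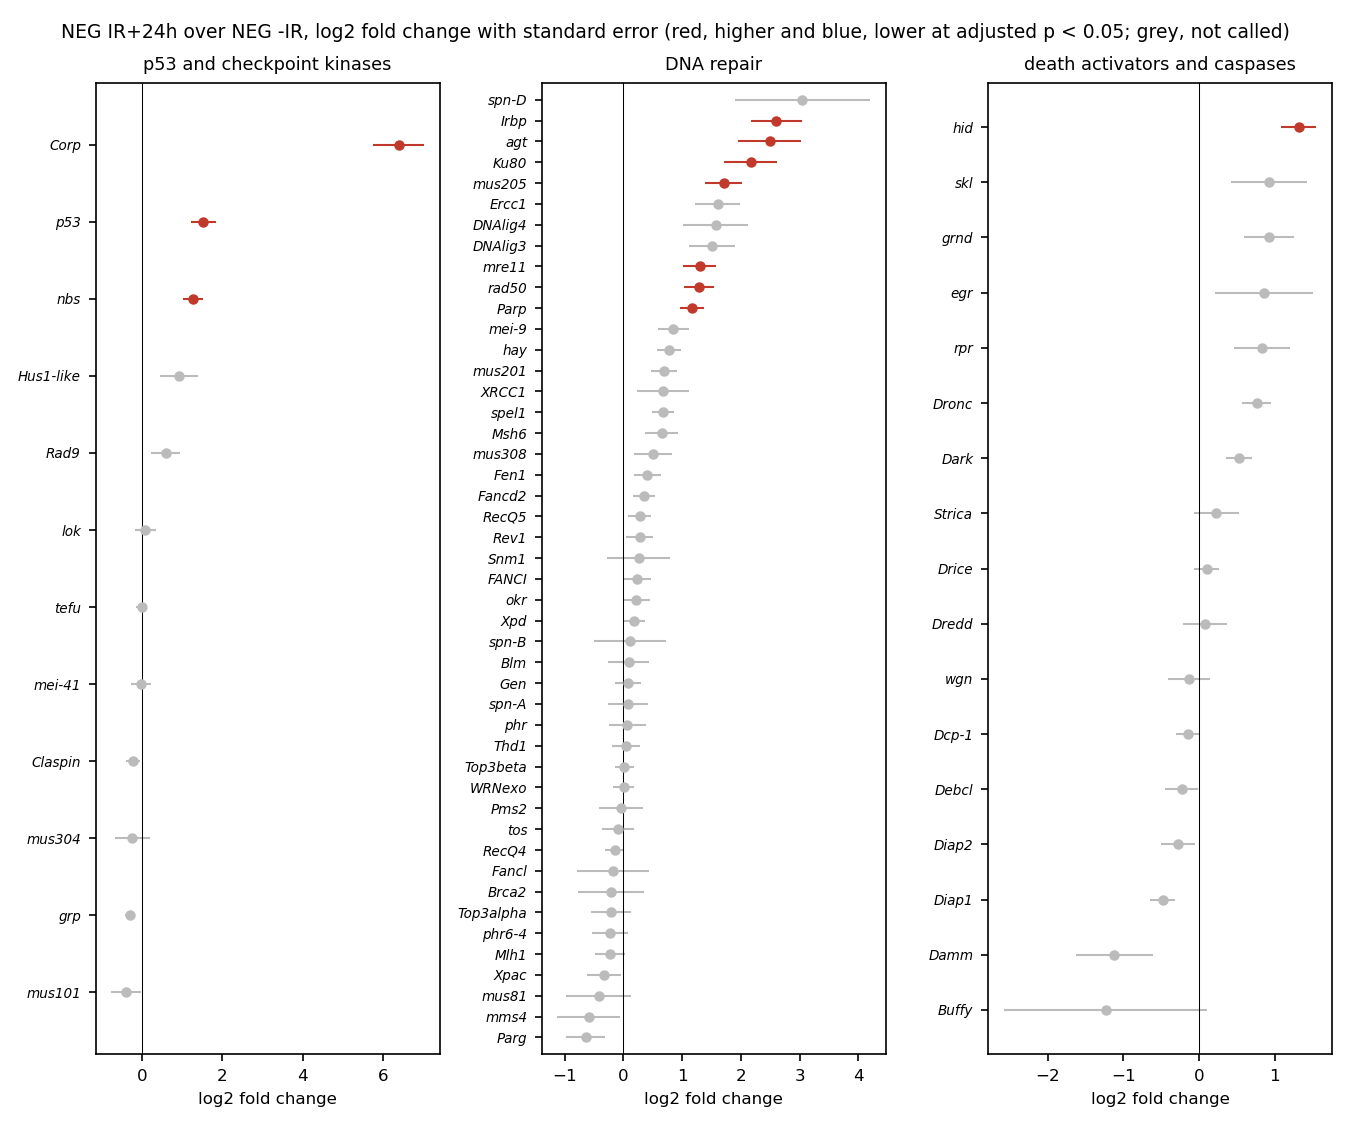
Log2 fold change of NEG IR+24h over NEG -IR with its standard error (bars) for every tested gene of 3 textbook lists, sorted by size within each panel. Red points rose and grey points did not pass. Corp stands at 6.38, Irbp leads the repair genes that rose with a 6.07-fold increase, and hid at 1.32 is the 1 gene of the death list that passed.

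Among 17 death activators, caspases and their inhibitors, hid rose and none passed as lower (median log2 fold change 0.10), while 1.89% of all genes tested rose. hid encodes an antagonist of the caspase inhibitor Diap1. It had 253 and 331 CPM in NEG IR+24h and 116 and 119 CPM in NEG -IR. The gap between the groups was larger than the difference within either (log2 fold change 1.32, SE 0.24, adjusted p = 0.0127). Of the genes of the same cluster, grim was left out by the filter on low counts, and rpr and skl were not called. rpr had 103 and 139.9 CPM in NEG IR+24h and 94.1 and 43.9 CPM in NEG -IR, with the higher unirradiated library, the shallow one, close to the lower irradiated one (log2 fold change 0.83, SE 0.37, adjusted p = 0.36). Without that shallow library, NEG -IR replicate 1, the log2 fold change of rpr was 1.44 (adjusted p = 0.0756), and it passed in the fit without a filter (adjusted p = 0.00753). skl had 14.1 and 15.3 CPM in NEG IR+24h and 8.47 and 7.12 CPM in NEG -IR (log2 fold change 0.93, SE 0.51, adjusted p = 0.475). egr, the TNF ligand that acts upstream of JNK, had 72.9 and 76.1 CPM in NEG IR+24h and 13.1 and 67 CPM in NEG -IR (log2 fold change 0.86, adjusted p = 0.64), and here the unirradiated libraries differed from each other more than the groups did. The log2 fold change of egr was 0.13 without NEG -IR replicate 1 (adjusted p = 0.946) and 2.52 without NEG -IR replicate 2 (adjusted p = 0.0833), and the gene passed in the fit without a filter (adjusted p = 0.0398). The adjusted p of hid was 0.151 without NEG IR+24h replicate 2 and 0.0535 without NEG -IR replicate 1.

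Of 13 JNK pathway genes 0 passed with edgeR, 1 with limma voom and 1 with DESeq2, and 3 had an unadjusted p under 0.05 in edgeR, all higher. With puc, the phosphatase that is both a JNK target and its feedback inhibitor, the values were 127 and 121 CPM in NEG IR+24h and 69.7 and 95.8 CPM in NEG -IR (log2 fold change 0.58, SE 0.26, adjusted p = 0.373).

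Of the genes linked to tissue damage and regeneration, 9 of 23 tested rose, against 1.89% of all genes, and none passed as lower. The median of the list was 0.59. Ilp8 (FBgn0036690, chromosome 3L, 17029812 to 17032080) had 47.4 and 74.3 CPM in NEG IR+24h, against 4.6 and 1.67 CPM in NEG -IR. Both irradiated libraries stood far above both unirradiated ones (log2 fold change 4.53, SE 0.54, adjusted p = 0.00149). The Unpaired ligands, secreted cytokines that activate JAK/STAT signalling, were higher in both irradiated libraries than in either unirradiated one. upd3 had 14.6 and 20.9 CPM in NEG IR+24h and 1.94 and 2.25 CPM in NEG -IR (log2 fold change 3.05, SE 0.50, adjusted p = 0.00774). upd2 had 16 and 21.6 CPM in NEG IR+24h and 3.15 and 3.78 CPM in NEG -IR (log2 fold change 2.41, SE 0.42, adjusted p = 0.0111). upd1 had 6.01 and 12.3 CPM in NEG IR+24h and 2.9 and 1.09 CPM in NEG -IR and missed the threshold (log2 fold change 2.41, SE 0.57, adjusted p = 0.0537). upd1 passed in 5 of 13 alternatives, including DESeq2 (adjusted p = 0.000828) and the fits without NEG IR+24h replicate 1 (0.0491) or NEG -IR replicate 1 (0.0364), and its log2 fold change was 1.67 without NEG -IR replicate 2. Downstream of the ligands, Socs36E, a STAT target that feeds back on the receptor, had 278 and 275 CPM in NEG IR+24h and 201 and 159 CPM in NEG -IR (log2 fold change 0.62, adjusted p = 0.268).

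Mmp1, a matrix metalloprotease, had 396 and 544 CPM in NEG IR+24h and 155 and 164 CPM in NEG -IR, and the groups were apart by more than the difference within either (log2 fold change 1.56, SE 0.20, adjusted p = 0.00184). The remaining members that rose were the ETS factor Ets21C (log2 fold change 1.63), the PDGF and VEGF-like ligand Pvf2 (1.31), the BTB zinc finger gene chinmo (1.27), the protease homologue scaf (1.22) and the nuclear receptor ftz-f1 (1.16). Ets21C shares 28.3% of its exon bases with nAChRbeta3 on the other strand. Ilp8 and Mmp1 held their calls. Without NEG IR+24h replicate 2 the number of the list that passed was 2, and without NEG -IR replicate 2 it was 6.

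**Figure D3:**
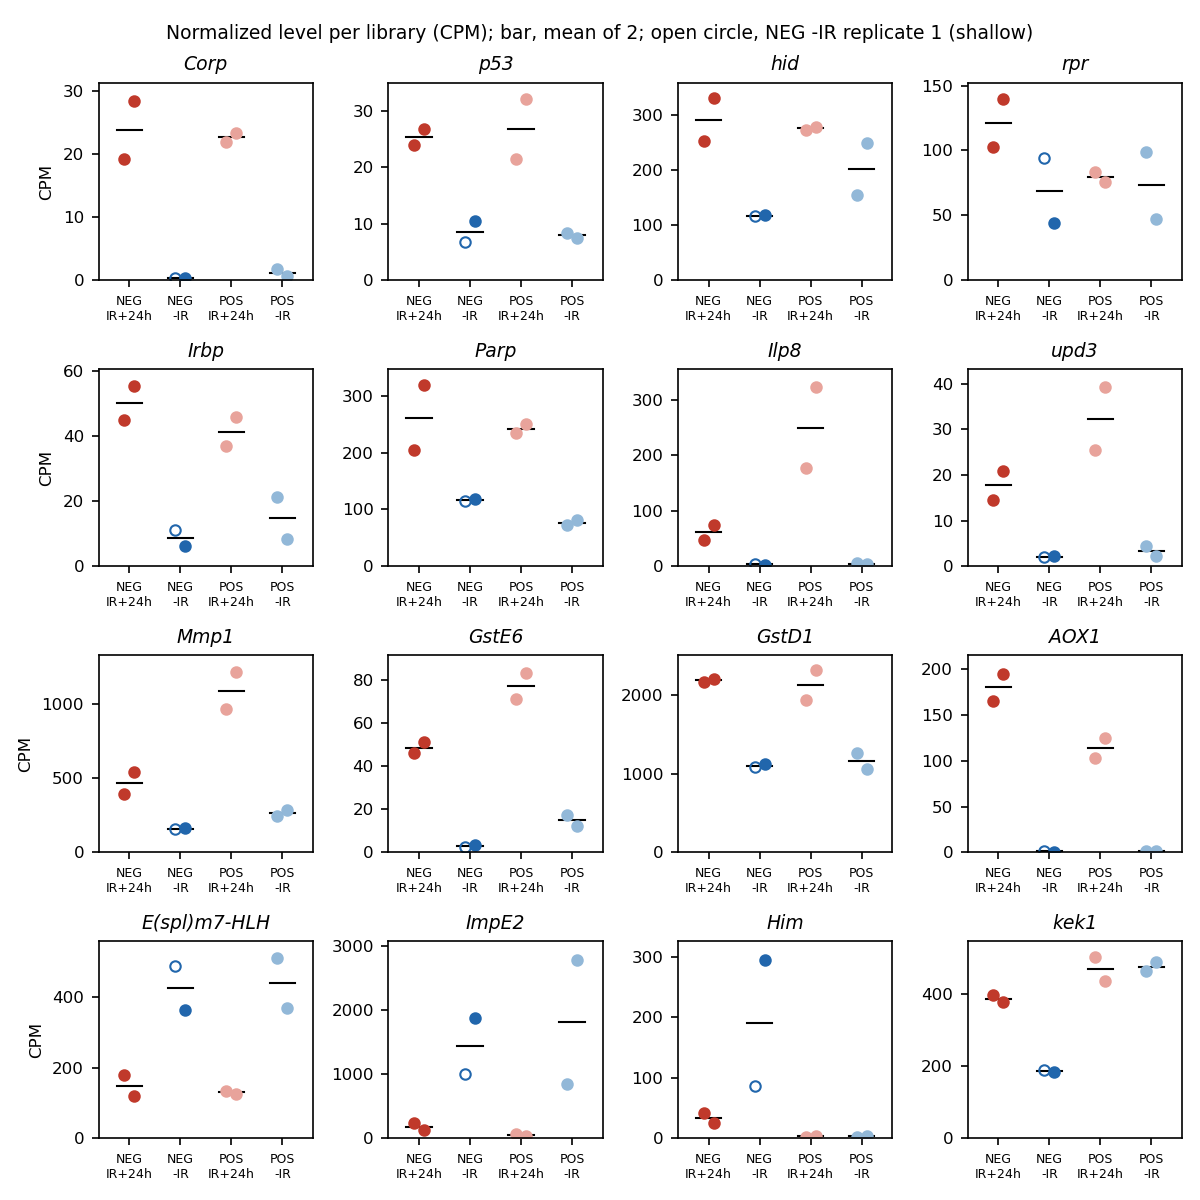
Normalized level in CPM (vertical axis) of 16 genes in NEG IR+24h (dark red), NEG -IR (dark blue), POS IR+24h (light red) and POS -IR (light blue). Points are single libraries, bars the mean of 2, and the open circle the shallow NEG -IR replicate 1. The NEG groups do not overlap in any of the 16 panels, which holds for every called gene. The gap is narrow for rpr, where 103 CPM in NEG IR+24h replicate 1 stands near 94.1 CPM in NEG -IR replicate 1.

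Glutathione S-transferases, which conjugate glutathione to electrophiles, were the other group with many increases: 8 of 33 tested genes rose, against 1.89% of all genes, and none passed as lower. The median log2 fold change of the list was 0.83. GstE6 (FBgn0063494, chromosome 2R, 18406011 to 18406761) had 45.8 and 51.3 CPM in NEG IR+24h, against 2.42 and 3.41 CPM in NEG -IR, with little spread in either pair (log2 fold change 3.99, SE 0.30, adjusted p = 0.000102). It sits in a run of GstE genes on the same strand, and its neighbours GstE5 (log2 fold change 2.49), GstE7 (2.66) and GstE8 (2.10) rose with it, as did GstE1 (2.09) elsewhere in the cluster. GstD3 had 268 and 325 CPM in NEG IR+24h and 100.2 and 78.6 CPM in NEG -IR (log2 fold change 1.74, adjusted p = 0.00228). GstD1, a widely used reporter of oxidative stress, had 2169.7 and 2208 CPM in NEG IR+24h and 1081 and 1119 CPM in NEG -IR (log2 fold change 0.99, SE 0.16, adjusted p = 0.00799), and its values agreed within each pair to a few percent. GstT1 was the eighth (log2 fold change 1.26). Genes of each cluster resemble each other in sequence, and how reads matching several of them were divided is not given in the sources used here. GstE6 and GstD3 held their calls, and the number of the list that passed was 5 without NEG IR+24h replicate 1 and 2 without NEG IR+24h replicate 2.

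A list of stress response genes gave 5 increases and 1 decrease among 26 tested (median log2 fold change 0.17), while 1.89% of all genes rose and 0.264% fell. GstD1, already counted among the glutathione S-transferases, is 1 of the 5. Gclc, the catalytic subunit of the first enzyme of glutathione synthesis, had 124 and 102 CPM in NEG IR+24h and 37 and 39.2 CPM in NEG -IR (log2 fold change 1.57, adjusted p = 0.00195). The peroxiredoxin Jafrac1 had 453 and 584 CPM in NEG IR+24h and 198 and 209 CPM in NEG -IR (log2 fold change 1.35, adjusted p = 0.00176). Both held their calls, and with GstD1 they are the antioxidant part of the list. Irbp18, a C/EBP-type partner of Xrp1 (log2 fold change 2.10, adjusted p = 0.0173), and Thor, the translational repressor 4E-BP (1.43, adjusted p = 0.0433), also rose, while the endoplasmic reticulum enzyme Pdi fell (-0.71, adjusted p = 0.0489). Xrp1, a bZIP gene induced by IR in a p53-dependent way in earlier work on flies, had 2520.0 and 2669.9 CPM in NEG IR+24h and 1299.5 and 1695 CPM in NEG -IR, and missed the threshold (log2 fold change 0.79, SE 0.19, adjusted p = 0.0606). Xrp1 passed in 6 of 14 alternatives, including DESeq2 (adjusted p = 0.0214), library sizes without TMM (0.0193) and the replicate block (0.045). The number of stress genes that rose was 3 without NEG IR+24h replicate 1 and 2 without NEG IR+24h replicate 2. Of 34 xenobiotic cytochrome P450 genes 2 rose, Cyp6d2 and Cyp6a17. Cyp6d2 had 73.5 and 94.7 CPM in NEG IR+24h and 2.42 and 2.18 CPM in NEG -IR (log2 fold change 5.21, SE 0.66, adjusted p = 0.00195), but 51% of its exon bases overlap nsr on the other strand. Of 21 autophagy genes 1 rose, the cargo receptor ref(2)P (194 and 217 CPM in NEG IR+24h, 71.9 and 73.2 CPM in NEG -IR, a 2.83-fold increase, adjusted p = 0.00184), and of 25 immune effectors 1, Tep4 (log2 fold change 1.02).

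**Figure D4:**
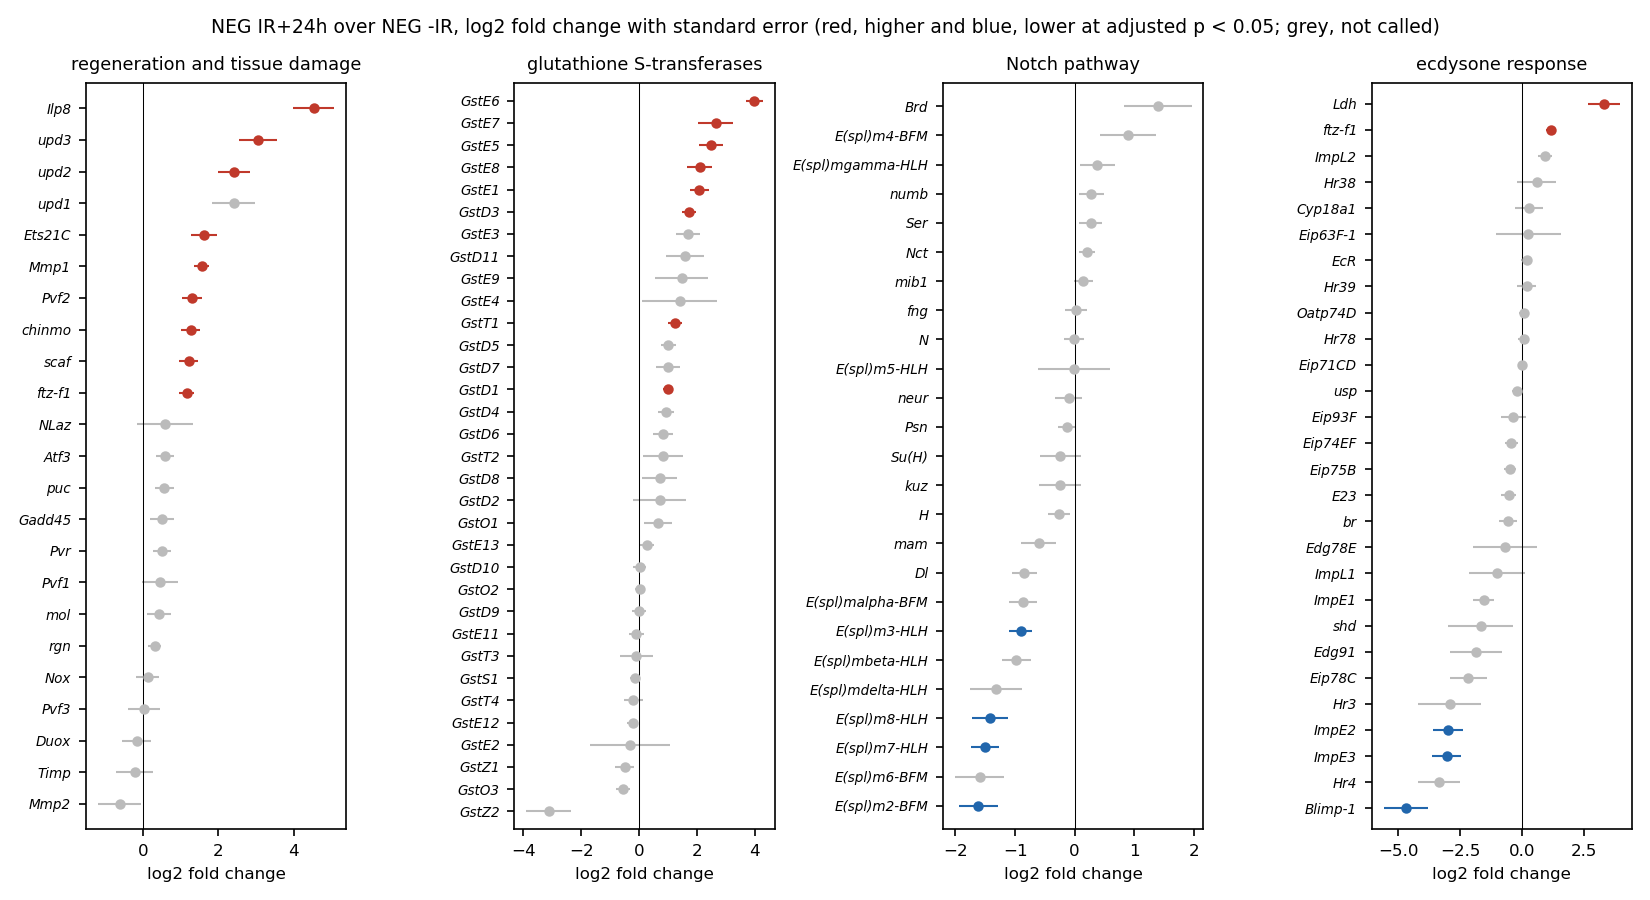
Log2 fold change of NEG IR+24h over NEG -IR with its standard error (bars) for every tested gene of 4 textbook lists. Red points rose, blue points fell and grey points did not pass. Ilp8 (4.53) and GstE6 (3.99) lead their lists, and the blue points are confined to 4 E(spl) genes in the Notch panel and to ImpE2, ImpE3 and Blimp-1 in the ecdysone panel.

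The largest increases by the naming rule included genes outside these lists. AOX1, an aldehyde oxidase (FBgn0267408, chromosome 3R, 15532137 to 15537292), had the smallest p of all genes. It had 165 and 196 CPM in NEG IR+24h, against 0.968 and 0.654 CPM in NEG -IR, near the detection floor in the shallower of them (log2 fold change 7.92, SE 0.39, adjusted p = 2.09e-06). Dscam3, an immunoglobulin-family adhesion molecule, had 54.8 and 149 CPM in NEG IR+24h and 0.968 and 0.654 CPM in NEG -IR (log2 fold change 7.09, SE 0.85, adjusted p = 0.00149), with the irradiated libraries differing from each other more than for AOX1. With limma voom Dscam3 did not pass (adjusted p = 0.152). JhI-26, a juvenile hormone-inducible gene, had 28.9 and 34.8 CPM in NEG IR+24h and 0 and 0.436 CPM in NEG -IR (log2 fold change 6.60), but 70.5% of its exon bases lie over asRNA:CR43730 on the other strand. Cul2, the scaffold of a cullin-RING ubiquitin ligase, had 761 and 783 CPM in NEG IR+24h and 115 and 99.7 CPM in NEG -IR (log2 fold change 2.85, SE 0.25, adjusted p = 0.000224). Arc1, which encodes a capsid-forming Gag-like protein known from synapses, had 310.0 and 360.3 CPM in NEG IR+24h and 46.7 and 72.9 CPM in NEG -IR (log2 fold change 2.47, SE 0.20, adjusted p = 0.000114). The groups were far apart for each of these genes, and AOX1, Dscam3, JhI-26, Cul2 and Arc1 all held their calls. Of the genes without a known role that the rule names, CG32625 had a log2 fold change of 5.27 and CG32440 one of 4.63. CG15784, chosen after its values were seen, had 1209.6 and 1276 CPM in NEG IR+24h and 109 and 153 CPM in NEG -IR (log2 fold change 3.24, adjusted p = 0.000588).

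Noncoding RNAs made up 7 of the 201 increases and 1 of the 28 decreases. Their share among all genes tested was not counted, so these numbers show neither an excess nor a lack of them. asRNA:CR45136 had 183 counts in NEG IR+24h and 0 in NEG -IR, at least 40.5-fold higher over the same group floor. lncRNA:CR44111 had 152 counts against 1, a ratio with a 95% counting interval of 17.8 to 4010, lncRNA:CR46216 had 158 against 1, a ratio of 105 (18.6 to 4170), and asRNA:CR45140 had 155 against 2, a ratio of 51.5 (14 to 429). These RNAs were close to undetected without IR, and their counts are too few to rank their folds. On the other strand, CG30015 overlaps 61.1% of the exon bases of asRNA:CR45136, and CG17574 overlaps 34.5% of those of asRNA:CR45140. CG17574, chosen after its values were seen, also rose (log2 fold change 1.49). With the strand of counting unknown, the increases of both antisense RNAs are uncertain.

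Most of the genes that fell and belong to a list were Notch targets, ecdysone-response genes or EGFR pathway members. Of 25 Notch pathway genes, 4 fell, against 0.264% of all genes tested, and none passed as higher. The median log2 fold change of the list was -0.24, and 12 of the 25 were lower in all 4 pairs, against 17.7% of all genes. All 4 are E(spl) genes, which Notch switches on to repress proneural fate or, for the Bearded-family members, to modulate Notch ligands. E(spl)m7-HLH had 179 and 120.2 CPM in NEG IR+24h and 487 and 362 CPM in NEG -IR, so the higher irradiated library was below the lower unirradiated one by more than the spread within the irradiated pair (log2 fold change -1.50, SE 0.24, adjusted p = 0.00725). E(spl)m2-BFM had 96.2 and 72.4 CPM in NEG IR+24h and 292 and 225 CPM in NEG -IR (log2 fold change -1.61, SE 0.33, adjusted p = 0.0272). E(spl)m8-HLH (-1.42) and E(spl)m3-HLH (-0.90) also fell. The receptor gene N did not pass, and the ligand gene Dl had 169.9 and 206 CPM in NEG IR+24h and 413 and 263 CPM in NEG -IR (log2 fold change -0.84, adjusted p = 0.0668). Among 21 EGFR pathway genes, the receptor gene Egfr fell (232 and 211 CPM in NEG IR+24h, 414 and 381 CPM in NEG -IR, log2 fold change -0.84, adjusted p = 0.0256), as did edl, an antagonist of the repressor Yan (-0.89, adjusted p = 0.0446), while kek1, a feedback inhibitor of the receptor, rose. Without NEG IR+24h replicate 2 the 4 E(spl) genes had adjusted p between 0.106 and 0.363, and without NEG -IR replicate 1 only E(spl)m7-HLH of the 4 passed. Egfr had an adjusted p of 0.108 without NEG IR+24h replicate 1, 0.289 without NEG IR+24h replicate 2 and 0.0682 without NEG -IR replicate 1, and edl lost its call in the same 3 fits.

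Among ecdysone-response genes, 3 of 28 fell and 2 rose, against 0.264% and 1.89% of all genes tested, with a median log2 fold change of -0.46. ImpE2 and ImpE3 were isolated as ecdysone-inducible genes of imaginal discs, and Blimp-1 is an ecdysone-induced repressor that times the expression of ftz-f1. ImpE2 had 235 and 128 CPM in NEG IR+24h and 1002 and 1882 CPM in NEG -IR (log2 fold change -2.99, SE 0.62, adjusted p = 0.0279). ImpE3 had 5.28 and 3.25 CPM in NEG IR+24h and 24.7 and 44.4 CPM in NEG -IR (log2 fold change -3.03, SE 0.58, adjusted p = 0.0193). Blimp-1 had 0.641 and 0.622 CPM in NEG IR+24h and 8.95 and 23.5 CPM in NEG -IR (log2 fold change -4.70, SE 0.89, adjusted p = 0.0173). All 3 were low in both irradiated libraries and differed widely between the unirradiated ones, with NEG -IR replicate 2 the higher each time. The increases were ftz-f1, given above, and Ldh, lactate dehydrogenase, with 56.3 and 80.3 CPM in NEG IR+24h and 0.968 and 11.1 CPM in NEG -IR (log2 fold change 3.28, SE 0.66, adjusted p = 0.024). Without NEG -IR replicate 2 the adjusted p of the 3 genes that fell was 0.0715 for ImpE2, 0.0645 for ImpE3 and 0.0622 for Blimp-1, and without either NEG IR+24h library they did not pass. Ldh also lost its call without either NEG IR+24h library (adjusted p = 0.054 without replicate 1 and 0.154 without replicate 2), and its log2 fold change was 2.598 without NEG -IR replicate 1 and 6.14 without NEG -IR replicate 2.

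Further decreases named by the rule were spread over functions. Spn43Aa, a serpin gene, had 17.5 and 17 CPM in NEG IR+24h and 94.9 and 171 CPM in NEG -IR (log2 fold change -2.95, SE 0.47, adjusted p = 0.00652). Nep2, a neprilysin-type endopeptidase, had 15.1 and 13.1 CPM in NEG IR+24h and 42.6 and 45.8 CPM in NEG -IR (log2 fold change -1.65, adjusted p = 0.00652), and wbl, an endoplasmic reticulum protein of the embryonic dorsoventral pathway, had 19.9 and 18.5 CPM in NEG IR+24h and 50.3 and 46.6 CPM in NEG -IR (-1.34, adjusted p = 0.00774). CG9628 (-2.02), CG5758 (-2.51), CG6287 (-1.41), lncRNA:CR33938 (-2.11), the sarcomere kinase gene Unc-89 (-2.11) and the ionotropic co-receptor gene Ir25a (-2.39) completed the group. For each gene with values given here the irradiated libraries were both below the unirradiated ones, as for every gene called lower. None of the 9 genes in this group held its call. Without NEG IR+24h replicate 2 the adjusted p of Spn43Aa was 0.0935.

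A pair of decreases stood apart because 1 unirradiated library was much higher than the other. Him, an inhibitor of muscle differentiation that marks muscle precursors, had 42.5 and 24.7 CPM in NEG IR+24h and 86.9 and 295 CPM in NEG -IR (log2 fold change -2.52, SE 0.54, adjusted p = 0.0331). CG11835, whose current name is uncNacbeta, had 28.1 and 13 CPM in NEG IR+24h and 60.7 and 287 CPM in NEG -IR (log2 fold change -3.09, SE 0.62, adjusted p = 0.0254). In both genes NEG -IR replicate 2 was more than 3 times as high as NEG -IR replicate 1, which was still above both irradiated libraries. The 8 muscle precursor markers, the cells that form flight muscle beneath the notum epithelium, summed to 1250 and 819 CPM in NEG IR+24h and 887 and 2413 CPM in NEG -IR, and none of the 8 was at 0 in all 4 libraries. The sums of the groups overlapped, and the highest sum was again that of NEG -IR replicate 2. Him was the 1 of the 8 that passed, against 0.264% of all genes tested that passed as lower, and the median of the list was -0.61. The mesodermal regulator twi had 121 and 75.9 CPM in NEG IR+24h and 113 and 259.6 CPM in NEG -IR (adjusted p = 0.435). The part of the muscle precursor content in these results was not tested. Without NEG -IR replicate 2 the log2 fold change was -1.36 for Him (adjusted p = 0.149) and -1.56 for CG11835 (adjusted p = 0.115).

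Markers of other cell types gave few calls. Of 13 hemocyte, 5 tracheal, 7 fat body and 8 neuron or glia markers 0 passed with edgeR and 0 with limma voom, and 1 neuron or glia marker passed with DESeq2. In edgeR 2 fat body, 1 neuron or glia, 1 hemocyte and 1 tracheal marker had an unadjusted p under 0.05. Hml, a hemocyte gene, had 167 and 49.8 CPM in NEG IR+24h and 30.7 and 63.5 CPM in NEG -IR, so it varied within the irradiated pair more than between groups (adjusted p = 0.373). Of 11 markers of differentiated muscle 1 rose, Mlc2 (log2 fold change 1.97, adjusted p = 0.0042), against 1.89% of all genes tested. Among 9 hinge, 12 pouch and 11 notum genes 0 passed with edgeR and 0 with limma voom, while DESeq2 called 1 hinge gene higher and 1 notum gene in each direction. At an unadjusted p under 0.05 in edgeR, 2 hinge, 1 pouch and 1 notum gene were lower and 1 hinge and 1 notum gene higher. Their medians were -0.64, -0.21 and -0.40, each below that of all genes.

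Lists for growth and the cell cycle gave few calls. Of 84 cytoplasmic and 74 mitochondrial ribosomal protein genes, 32 cell cycle regulators, 38 proteasome subunits and 25 heat shock genes 0 passed with edgeR and 0 with limma voom, and 1, 0, 6, 1 and 2 of them had an unadjusted p under 0.05 in edgeR. DESeq2 called 1 cell cycle regulator in each direction and no other gene of these lists. The cytoplasmic ribosomal protein genes were nevertheless low as a group: 57 of the 84 were lower in all 4 pairs, against 17.7% of all genes, and their median log2 fold change was -0.16. Their summed level was 158200 and 137600 CPM in NEG IR+24h and 164900 and 164600 CPM in NEG -IR. The median was -0.12 without TMM scaling and -0.05 without NEG IR+24h replicate 2, the library with the lowest sum. Of 58 mitosis genes 1 rose, feo of the central spindle (log2 fold change 1.03), and of 29 nucleolar ribosome biogenesis genes 1, nclb (0.78), with a list median of 0.30. The share of all genes tested that rose was 1.89%. In the Hippo and Fat-Dachsous list 1 of 19 rose, the Golgi kinase gene fj (213 and 325 CPM in NEG IR+24h, 128 and 113 CPM in NEG -IR, log2 fold change 1.16). Of 26 Wnt, 18 Dpp and 15 Hedgehog pathway genes 0 passed with edgeR and 0 with limma voom, 1 Hedgehog pathway gene was called lower by DESeq2, and 3, 6 and 4 of them had an unadjusted p under 0.05 in edgeR.

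The same contrast in the POS hinge cells, which shares no library with it, gave 440 genes higher (4.14%) and 126 lower (1.19%). Both populations were sorted from the same dissociated discs, so these contrasts are not independent. Deviations from the group mean correlated at 0.471 between same-numbered NEG and POS libraries without IR, and at 0.11 at IR+24h. Of the 201 genes that rose in NEG cells, 170 also rose in POS cells and 199 had the same sign there, with a median log2 fold change of 1.53. Of the 28 that fell in NEG cells, 23 fell in POS cells and 27 had the same sign, with a median of -1.33. The difference between the NEG change and the POS change passed for 0 genes in edgeR, with a lowest adjusted p of 0.0901 and 353 genes at an unadjusted p under 0.05, for 0 genes in limma voom and for 15 in DESeq2. Of the 229 genes, 35 had an unadjusted p under 0.05 for that difference. A gene called in NEG and not in POS cells is therefore not shown to be particular to NEG cells.

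**Figure D5:**
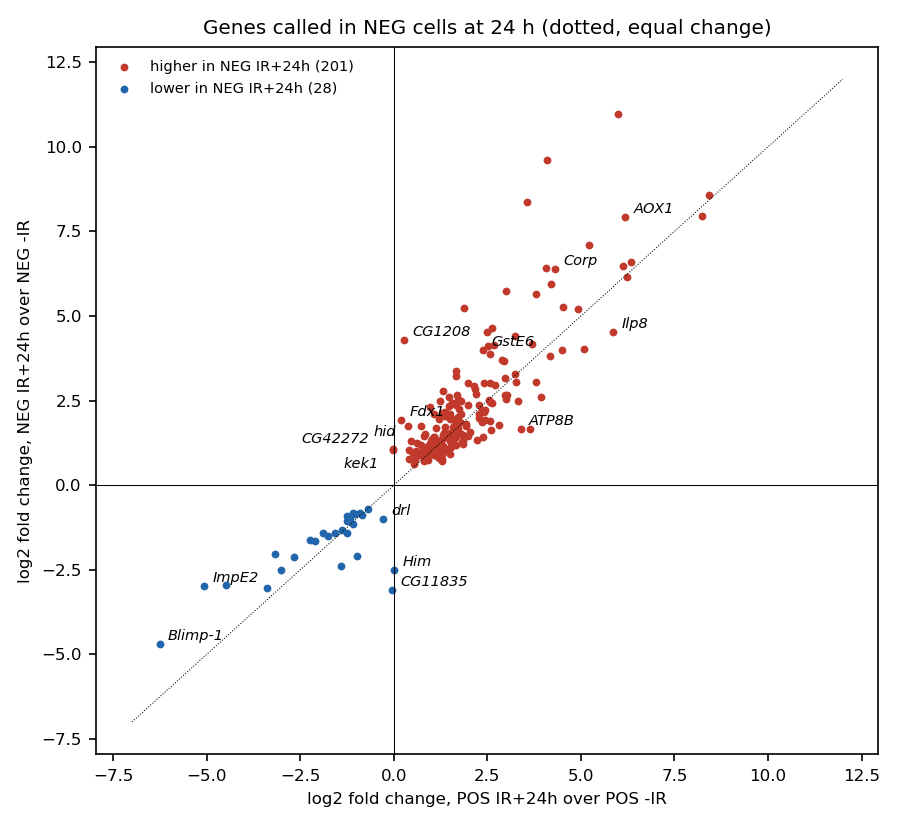
Log2 fold change at 24 h of the 229 genes called in NEG cells, in NEG cells (vertical axis) and in POS cells (horizontal axis). Red points rose and blue points fell in NEG cells, and the dotted line marks equal change. Most points lie near the line, while kek1 (2.06-fold in NEG and a log2 fold change of -0.01 in POS), Him (-2.52 and 0.01) and CG11835 (-3.09 and -0.05) lie on the vertical axis.

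The gene with the smallest p for the difference among those named was kek1. It had 396 and 377 CPM in NEG IR+24h and 190.0 and 185 CPM in NEG -IR, against 504 and 437 CPM in POS IR+24h and 462 and 488 CPM in POS -IR. In NEG cells the groups were apart, and in POS cells they overlapped. Its NEG change exceeded its POS change by a log2 difference of 1.06 (SE 0.19, unadjusted p = 0.000132, adjusted p = 0.349), and in DESeq2 the difference passed (adjusted p = 0.000708). For GstE6 the difference was 1.60 (SE 0.38, unadjusted p = 0.0012, adjusted p = 0.911). It had 70.8 and 83 CPM in POS IR+24h and 17.3 and 12.2 CPM in POS -IR, so its level was higher in POS cells in both conditions and its fold was larger in NEG cells. hid had 274 and 278 CPM in POS IR+24h and 155 and 249 CPM in POS -IR, so both irradiated POS libraries lay within the range of NEG IR+24h, and its POS log2 fold change was 0.45 (adjusted p = 0.342). The difference for hid was 0.87 (SE 0.33, unadjusted p = 0.0214) and did not pass after adjustment. Ilp8 had 177 and 322 CPM in POS IR+24h and 5.72 and 2.98 CPM in POS -IR, a log2 fold change of 5.86 (adjusted p = 0.000144), with a difference of -1.33 (SE 0.72, unadjusted p = 0.0895). egr, not called in NEG cells, rose in POS cells (log2 fold change 3.29, adjusted p = 0.0221), with 58.7 and 52.9 CPM in POS IR+24h and 1.88 and 9.31 CPM in POS -IR, and the difference was -2.43 (SE 0.94, unadjusted p = 0.0246). For Him and CG11835 the differences were -2.52 (SE 0.81, unadjusted p = 0.0095) and -3.04 (SE 0.87, unadjusted p = 0.00474), and both genes were below 10 CPM in all 4 POS libraries.

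At 48 h NEG cells were measured against the same -IR libraries, so the values of both times are given side by side only. AOX1 had 62 and 38.5 CPM at 48 h (165 and 196 CPM at 24 h), Corp 8.6 and 6.76 CPM (19.3 and 28.4 CPM at 24 h) and GstE6 25.8 and 18.6 CPM (45.8 and 51.3 CPM at 24 h). Each of these was nearer the -IR level than at 24 h and still above it. Ilp8 had 33.3 and 30.6 CPM at 48 h, upd3 4.43 and 8.99 CPM and Mmp1 305 and 282 CPM. hid had 122 and 136 CPM and Ku80 22.4 and 18.1 CPM, both close to their -IR levels. Arc1 had 285 and 284 CPM, near its 24 h level of 310.0 and 360.3 CPM. Among the genes that fell, E(spl)m7-HLH had 190.5 and 218 CPM at 48 h, ImpE2 514 and 220.1 CPM and Blimp-1 10.6 and 5.95 CPM, the last on either side of the 8.95 CPM of NEG -IR replicate 1.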

How the data were processed

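Poly-A RNA libraries of sorted wing disc cells were compared. According to the sample labels, the processing notes and the study's methods, the authors trimmed adapters and 12 leading bases, kept reads of 50 bases or more, used STAR 2.6.0a for alignment and counting (Ensembl release 97 of BDGP6) and deposited raw, unnormalized counts per gene. The strand of counting is not given in the sources used here. 1 column of counts that matches no sample was not used. Spike-in entries numbered 0.

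Counts of all 12 libraries were fitted as 6 group means with edgeR 4.0.16 in R 4.3.3 (TMM factors, filterByExpr, quasi-likelihood F tests, two-sided, Benjamini-Hochberg over 10617 genes, threshold 0.05). The biological coefficient of variation was 0.303. A contrast of NEG change minus POS change tested the difference between populations. Total counts ranged from 4211088 to 19940040, and 3 counts were taken as the floor. The members and the gene lists were chosen with earlier results of these data known, and the 42 lists come from textbook knowledge.

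Genes named are the 12 largest changes in each direction with at least 5 CPM in the higher group and the same direction in all 4 pairs of libraries, the 6 smallest p in each direction and list members. For any other gene the text says that its values had been seen before it was chosen. Positions and exon overlaps come from the BDGP6.54 annotation of the same assembly, matched by symbol (228 of the 229 called genes). Figures were drawn with matplotlib 3.10.9 in Python 3.11.15. The steps were tested on simulated data. Alternatives were limma 3.58.1 voom, DESeq2 1.42.0, no TMM, no filter, 1 CPM in all 12 libraries, fits to the NEG libraries or the 4 libraries alone, the replicate number as a block, thinning to the shallowest library and each library left out in turn.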

Additional observations from a re-analysis of the deposited data

How the results depend on the processing

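None of the 229 genes changed direction under any of the 14 alternatives, and 29 passed under all 14, each of them higher after IR, including Ilp8, Mmp1, GstE6, GstD3, Gclc, Arc1, Cul2 and ref(2)P. The number of calls moved more. DESeq2 called 507 genes, 346 higher and 161 lower, with all 229 among them, and a fit without a filter on low counts called 616, 380 higher and 236 lower. A fit to the 4 libraries alone, which estimates the spread from fewer samples, called 47, 41 higher and 6 lower, and a fit to the NEG libraries called 153, of which 17 were lower. limma voom called 187, library sizes without TMM 245, the stricter filter 178 and thinning to the shallowest library 207. Leaving out 1 library gave 60 to 300 calls, 60 to 196 higher and 0 to 104 lower. The difference between the NEG and the POS change passed for 15 genes in DESeq2, 64 without a filter and 0 to 5 with 1 library left out.

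The replicate numbers are not stated to pair libraries, and the correlation between same-numbered NEG libraries, taken on deviations from the group mean, was -0.135. With the replicate block 227 genes were called, 212 of them among the 229, and 1 gene passed for the difference between populations. With the IR+24h numbers crossed in that block, chosen after seeing the data, 315 were called, 63 of them lower. The cause of these shifts was not tested.

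Depth limits genes of few counts: 3 counts are 0.726 CPM in NEG -IR replicate 1. With 2 libraries in a group, the spread was estimated over all 12 libraries. A gene could therefore pass with a wide difference within a pair, as Him did with 86.9 and 295 CPM in NEG -IR. Most of the called genes lost their call in at least 1 of the fits that left out 1 library. Among them were hid, p53, the 4 E(spl) genes, ImpE2 and every other gene called lower.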

Other observations

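Genes of iron and sulfur metabolism were among the increases. These lists were drawn up after the values were seen and carry no test of their own, and 1.89% of all genes tested rose. Of 12 genes of iron-sulfur cluster assembly 4 rose, among them the cysteine desulfurase Nfs1, with 83.7 and 79.7 CPM in NEG IR+24h and 29 and 22.5 CPM in NEG -IR (log2 fold change 1.68), the scaffold IscU, with 104 and 111 CPM in NEG IR+24h and 40.2 and 41.6 CPM in NEG -IR (1.40), and the ferredoxin Fdx1, with 11.1 and 11.5 CPM in NEG IR+24h and 2.42 and 3.41 CPM in NEG -IR (1.91). Of 7 genes for the molybdenum cofactor and the enzymes that carry it 3 rose, AOX1, mal, the cofactor sulfurase (1.30), and Mocs1, which acts at the first step of cofactor synthesis and had 59.5 and 64.6 CPM in NEG IR+24h and 13.1 and 10.5 CPM in NEG -IR (2.42). Aldehyde oxidases carry both iron-sulfur clusters and this cofactor. Of 8 iron-handling genes 3 rose, the transferrin Tsf3, with 19.5 and 18 CPM in NEG IR+24h and 1.94 and 2.54 CPM in NEG -IR (3.02), the ferritin light chain Fer2LCH, with 397 and 427 CPM in NEG IR+24h and 229 and 218 CPM in NEG -IR (0.88), and the ferrochelatase FeCH (0.95). The irradiated libraries were above the unirradiated ones for each of these, as for every gene called higher. Mocs1 and Tsf3 passed under all alternatives. With 1 library left out, the number of each list that passed was 1 or 2 for iron-sulfur assembly, 2 or 3 for the molybdenum cofactor and 1 to 3 for iron handling, lowest without NEG IR+24h replicate 2 in each list. Of 9 UDP-glycosyltransferases 2 rose, Ugt86Di, with 98.3 and 124 CPM in NEG IR+24h and 18.9 and 24.2 CPM in NEG -IR (2.35), and Ugt86Da (1.44).

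Several called genes lie next to each other. Among 228 called genes with a position, 14 neighbouring pairs were at most 1000 bases apart or overlapped, and in each pair both genes moved the same way, all higher. Runs of neighbouring genes count as several pairs. How often genes of all those tested lie this close was not counted, and 201 of the 229 called genes rose. The number of pairs and their shared direction are therefore not shown to be unusual. lncRNA:CR43144 (chromosome 2L, 21657625 to 21658249), with 126 and 142 CPM in NEG IR+24h and 10.9 and 2.69 CPM in NEG -IR, ends 485 bases before Cul2 on the same strand. CG31296 lies 663 bases from AOX1, Cyp6d2 lies 274 bases from CG30196, and GstE5, GstE6, GstE7 and GstE8 follow each other at 672, 162 and 145 bases. lncRNA:CR43144, CG31296 and CG30196 were chosen after their values were seen. How reads beyond annotated gene ends were assigned is not given in the sources used here, and whether these pairs share transcripts was not tested.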
